A study of Mus musculus with 6 samples.

Results

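The synaptonemal complex and HORMAD axis genes are described here in embryonic ovaries of mice exposed to panobinostat (PB), an inhibitor of histone deacetylases, and in control ovaries. The 9 members were taken by gene name (Sycp1, Sycp2, Sycp3, Syce1, Syce2, Syce3, Tex12, Hormad1 and Hormad2). The rule uses names and no values, although the list was drawn up with earlier results of these data known. They make up 9 of the 35974 gene names in the transcript annotation, and 39 of its 114412 transcripts. The counts of all transcripts carrying a gene's name were added within each ovary pool. All 9 genes and 34 of the 39 transcripts passed the filter on low counts.

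Strand-specific RNA-seq was carried out on poly(A) RNA from ovaries of C57BL/6J embryos collected at E15.5 (E, embryonic day), with 3 control and 3 PB pools. Pregnant mice of the PB group received PB at 5 mg/kg between E6.5 and E15.5, once a day according to the sample annotation and on alternate days by gavage according to the methods of the study, and control mice received the DMSO and water vehicle. The number of ovaries in a pool is given as 4 in the extraction protocol, as 6 to 8 in the design text and as at least 8 in the methods, and the design text calls the control libraries exposed as well. The control libraries are taken here as labelled. Whether the pools of a group came from separate litters is not stated, so the p-values measure the spread between these pools. Pools held 97165644 to 125985399 counts, of which 3.05% to 4.49% fell on transcripts without a gene name.

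The synaptonemal complex is the protein zipper that holds homologous chromosomes together in meiotic prophase, which oocytes enter in the fetal ovary. SYCP2 and SYCP3 form the axis along each chromosome, and the HORMA domain proteins HORMAD1 and HORMAD2 coat axes that are not yet synapsed. SYCP1 spans the space between paired axes as the transverse filament, and SYCE1, SYCE2, SYCE3 and TEX12 form the central element where the SYCP1 ends from both sides meet. In ovary these genes are expressed in germ cells. In bulk tissue, fewer oocytes and less RNA per oocyte cannot be told apart.

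Markers of fetal ovary were present in all pools. The pregranulosa marker Foxl2 stood at 135 to 166 CPM (counts scaled to a library of 1000000) and the germ cell marker Dazl at 191 to 304 CPM, whereas the 4 genes of the Sertoli list summed to 18.9 to 31.7 CPM. Of these, Sox9 stood at 10.3 to 14.7 CPM, Cldn11 at 6.66 to 15.2 CPM, Dhh at 0.746 to 1.62 CPM and Amh at 0.646 to 1.20 CPM. Among PB pools, the mean chi-square per gene of a comparison of counts was 70.2 between PB 1 and PB 3, and 228 and 264 between PB 2 and these pools. It was 108 to 186 among control pools, so no pair of pools differed by as little as sampling noise. Control 3 stood apart in the mesonephros marker Cdh16, at 14.8 CPM against 1.90 to 3.87 CPM elsewhere, and in the summed red blood cell markers control 2 stood at 136% and control 3 at 63.5% of the control mean.

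Promoter windows are shown for the members that share a sequence feature. Each window runs from 250 bases before to 50 bases after a start site in RefSeq (GRCm38.p6), 5′ to 3′ on the strand of the gene. The E-box CACGTG, a motif of the MAX and MGA factors found in a Polycomb complex that silences germline genes outside the germline, was searched on both strands and is printed in capitals. RefSeq windows were found for all 9 members, 12 windows in all.
Sycp1 (chr3:102936051-102936350, minus strand): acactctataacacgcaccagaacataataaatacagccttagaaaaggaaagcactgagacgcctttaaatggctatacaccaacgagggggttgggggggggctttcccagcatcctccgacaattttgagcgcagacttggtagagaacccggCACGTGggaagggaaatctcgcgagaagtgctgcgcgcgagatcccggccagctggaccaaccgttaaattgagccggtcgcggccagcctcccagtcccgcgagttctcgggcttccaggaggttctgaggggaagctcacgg
Sycp3 (chr10:88459337-88459636, plus strand): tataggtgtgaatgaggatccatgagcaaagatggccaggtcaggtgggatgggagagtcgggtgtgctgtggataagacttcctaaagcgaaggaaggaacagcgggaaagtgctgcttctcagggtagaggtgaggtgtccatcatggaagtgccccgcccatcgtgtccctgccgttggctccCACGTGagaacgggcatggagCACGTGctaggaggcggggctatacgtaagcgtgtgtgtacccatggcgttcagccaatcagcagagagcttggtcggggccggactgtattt
Syce2 (chr8:84872008-84872307, plus strand): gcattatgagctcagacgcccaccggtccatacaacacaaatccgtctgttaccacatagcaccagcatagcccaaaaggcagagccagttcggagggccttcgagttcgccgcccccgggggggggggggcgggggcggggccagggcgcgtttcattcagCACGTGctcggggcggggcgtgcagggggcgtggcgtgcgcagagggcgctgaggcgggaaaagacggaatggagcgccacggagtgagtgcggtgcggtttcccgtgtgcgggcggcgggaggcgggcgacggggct
Tex12 (chr9:50561219-50561518, minus strand): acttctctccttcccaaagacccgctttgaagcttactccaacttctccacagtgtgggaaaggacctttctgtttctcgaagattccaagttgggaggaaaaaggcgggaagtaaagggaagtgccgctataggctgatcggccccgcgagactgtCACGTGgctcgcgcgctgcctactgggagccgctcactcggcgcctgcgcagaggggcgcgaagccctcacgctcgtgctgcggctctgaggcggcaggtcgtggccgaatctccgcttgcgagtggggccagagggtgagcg
Hormad1 (chr3:95559427-95559726, plus strand): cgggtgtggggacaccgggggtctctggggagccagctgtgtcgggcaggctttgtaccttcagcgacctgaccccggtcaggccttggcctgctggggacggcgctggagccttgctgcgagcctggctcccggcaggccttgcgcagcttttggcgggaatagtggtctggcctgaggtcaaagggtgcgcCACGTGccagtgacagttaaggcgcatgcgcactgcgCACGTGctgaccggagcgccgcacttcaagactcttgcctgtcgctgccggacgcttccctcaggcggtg
The E-box was present in 5 of the 9 members and in 8.09% of the 27025 genes with a window. In Sycp1, Syce2 and Tex12 its first base lay at -94, -88 and -93 from the start site. Sycp3 carried it at -64 and -43 and Hormad1 at -57 and -20. The letters TCCCGC, the core of E2F motifs, were found on either strand in the same 5 members, and in 22.0% of all genes. CNCCTCAG, the motif of the meiotic entry factors STRA8 and MEIOSIN, was found in Sycp1, Syce2, Tex12 and Hormad2, and in 9.12% of all genes. No E-box lay in the windows of Sycp2, Syce1, Syce3 or Hormad2. A TCCCGC match and the CNCCTCAG match of Syce2 overlap, and no other matches in the 12 windows do. These matches describe the windows and say nothing on binding.

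Sequences around the last splice sites of Sycp3 and Hormad1 are shown because alternative transcripts of both genes end their reading frames differently. The last 30 coding bases shared by both forms are in lower case, and the bases read after them, up to and including the stop codon, are in capitals (GENCODE M21 transcripts, mm10).
Sycp3, last intron retained: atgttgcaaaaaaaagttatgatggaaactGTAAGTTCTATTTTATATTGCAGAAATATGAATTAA
Sycp3, last intron spliced: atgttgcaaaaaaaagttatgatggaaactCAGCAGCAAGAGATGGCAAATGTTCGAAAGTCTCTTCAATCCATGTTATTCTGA
Hormad1, late exon included: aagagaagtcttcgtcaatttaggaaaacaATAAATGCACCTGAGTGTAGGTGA
Hormad1, late exon skipped: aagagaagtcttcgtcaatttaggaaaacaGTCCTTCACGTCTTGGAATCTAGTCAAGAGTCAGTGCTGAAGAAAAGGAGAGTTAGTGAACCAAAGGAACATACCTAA
The retained intron of Sycp3 adds 33 coding bases before a stop codon, in place of 51 coding bases from the last exon. The late exon of Hormad1 adds 21 coding bases before a stop codon, in place of 75 coding bases when it is skipped.

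The levels of the 9 genes in control ovaries were compared per length (counts divided by transcript length, scaled to the same total in each pool). On this scale Sycp3 was highest at 147 ± 11.7 (SD, n = 3), above 97.7% of the 26610 genes with a count. Syce2 followed at 115 ± 10.3, Hormad1 at 63.0 ± 9.20, Tex12 at 54.9 ± 7.79, Sycp1 at 46.4 ± 3.64 and Syce1 at 46.1 ± 6.78. Syce3 stood at 27.5 ± 2.50, Hormad2 at 12.4 ± 1.76 and Sycp2 at 10.7 ± 0.852, the last above 68.1% of genes. The SYCP axis genes thus lay at both ends of the per-length order, with Sycp3 13.8-fold above Sycp2. The place of Sycp2 depended on the processing: with known transcripts only, the ratio of the highest to the lowest member was 127, and in CPM, which do not correct for length, Sycp2 ranked 6 of 9 and Syce3 was lowest. The control ranges of neighbours overlapped for Hormad1 and Tex12, Tex12 and Sycp1, Sycp1 and Syce1, and Hormad2 and Sycp2. Within pools the order was steadier than these ranges, since all members shifted together. Sycp3 exceeded Syce2, Syce2 exceeded Hormad1, Hormad1 exceeded Tex12 and Tex12 exceeded Sycp1 in 6 of 6 pools, and Hormad2 exceeded Sycp2 in 5 of 6. Sycp1 exceeded Syce1 in 2 of 6 pools, and these neighbours were not separated.

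Relative to Sycp3 in the same pool, the per-length level of Sycp1 was 29.3% to 32.0% and that of Sycp2 7.20% to 7.96% over the 6 pools. The ratios of Syce2 and Hormad2 were lower in the pools with high Sycp3. Syce2 stood at 77.0% to 79.4% of Sycp3 in control pools, at 66.5% in PB 1, at 87.8% in PB 2 and at 62.8% in PB 3. Hormad2 stood at 7.74% to 8.77% in control pools and at 6.84%, 9.32% and 7.42% in PB 1, 2 and 3. The SD of log2 CPM among PB pools was 0.41 for Syce2, 0.42 for Hormad2 and 0.65 for Sycp3. A smaller spread than that of Sycp3 by itself lowers such a ratio where Sycp3 is high.

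The question of the comparison was whether exposure to PB in utero changed gene expression in the E15.5 ovary. None of the 9 genes passed the test (edgeR quasi-likelihood F-test, at least 2-fold and false discovery rate (FDR) of at most 0.05), and none had an unadjusted p under 0.05. DESeq2 called none of them either. The background of this test was 3 of 19435 genes called, or 0.0154%, and 4.46% of genes had an unadjusted p under 0.05. The mean was higher in PB for 9 of 9 members, against 50.7% of all genes, and the median log2 fold change was 0.28, against 0.002 for all genes. The PB pools did not move as a group. In all 9 genes PB 1 and PB 3 lay above every control pool and PB 2 lay below every control pool, an arrangement found in 7.24% of all genes tested. The arrangement was not among the planned comparisons and describes these members, so setting 9 of 9 against 7.24% is no test. The values that follow are CPM on TMM-scaled libraries, which compare pools and not genes.

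Sycp2, which encodes an axis protein that holds SYCP3 on the axis, lies at chr2:178345295-178408096 (mm10). It stood at 37.9, 38.7 and 37.1 CPM in control 1, 2 and 3 and at 60.9, 29.3 and 63.9 CPM in PB 1, 2 and 3. The control values lay within 1.04-fold of each other, whereas PB 1 and PB 3 were 2.08-fold and 2.18-fold above PB 2. The log2 fold change was 0.44 (SE 0.27, 95% interval -0.22 to 1.10, edgeR FDR = 0.888), the largest of the 9 genes. Sycp3, the other axis gene and the usual cytological marker of the axis, lies at chr10:88459587-88473236. Its values were 118, 111 and 116 CPM in control and 172, 81.2 and 184 CPM in PB pools. Control pools averaged 115 ± 3.38 CPM and PB pools 146 ± 56.0 CPM (SD, n = 3), and the log2 fold change was 0.34 (95% interval -0.34 to 1.02, edgeR FDR = 0.888).

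Hormad1, whose protein promotes break formation and synapsis from the unsynapsed axis, lies at chr3:95559640-95619247 in the annotation of the files. It stood at 78.4, 63.5 and 75.3 CPM in control and at 99.0, 61.1 and 112 CPM in PB pools. PB 2 was here only slightly below the lowest control pool. An assembled transcript that runs from Hormad1 into Golph3l, the next gene on the same strand, supplied 447 counts in PB 1 and 1594 counts in PB 2, against 0, 0 and 5 counts in control pools and 0 in PB 3. Without it Hormad1 stood at 94.5, 45.5 and 112 CPM in PB pools, and PB 2 was clearly below the control range. However, that transcript starts where the leading Hormad1 form starts, so leaving it out may also take away counts that belong to Hormad1 exons. The log2 fold change was 0.32 (SE 0.22) with that transcript and 0.21 (SE 0.31) without it. Hormad2, which acts in the checkpoint that monitors unsynapsed axes, lies at chr11:4345801-4441425. It stood at 16.3, 14.8 and 16.6 CPM in control and 19.5, 12.8 and 22.7 CPM in PB pools, with the smallest distance of PB 1 from PB 2 among the members, 1.52-fold.

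Sycp1, the transverse filament gene, lies at chr3:102818499-102936100. It stood at 109, 106 and 112 CPM in control and at 154, 71.1 and 161 CPM in PB pools. The SD of log2 values was 0.04 among control pools and 0.66 among PB pools. The log2 fold change was 0.24 (95% interval -0.45 to 0.92, edgeR FDR = 0.903).

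The central element genes showed the same arrangement. Syce1 (chr7:140777229-140787854) stood at 49.9, 40.7 and 47.6 CPM in control and at 66.1, 33.6 and 67.5 CPM in PB pools. Syce2 (chr8:84872111-84887446) stood at 78.8, 71.8 and 75.9 CPM in control and at 96.0, 59.0 and 97.9 CPM in PB pools. For both genes PB 2 was the lowest of the 6 pools and PB 3 the highest. Syce3 (chr15:89390174-89410503) was the least abundant member in CPM, at 7.46, 9.31 and 8.60 CPM in control and at 12.0, 4.91 and 11.3 CPM in PB pools. It was also the only member for which leaving out a pool reversed the direction. Tex12 (chr9:50556815-50561268), whose protein pairs with SYCE2, stood at 31.6, 25.9 and 30.7 CPM in control and at 40.9, 22.4 and 47.3 CPM in PB pools. Their log2 fold changes were 0.28, 0.16, 0.15 and 0.33 with SE of 0.26, 0.19, 0.32 and 0.26. The FDR lay between 0.888 and 0.937 over all 9 members (edgeR).

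**Figure D1:**
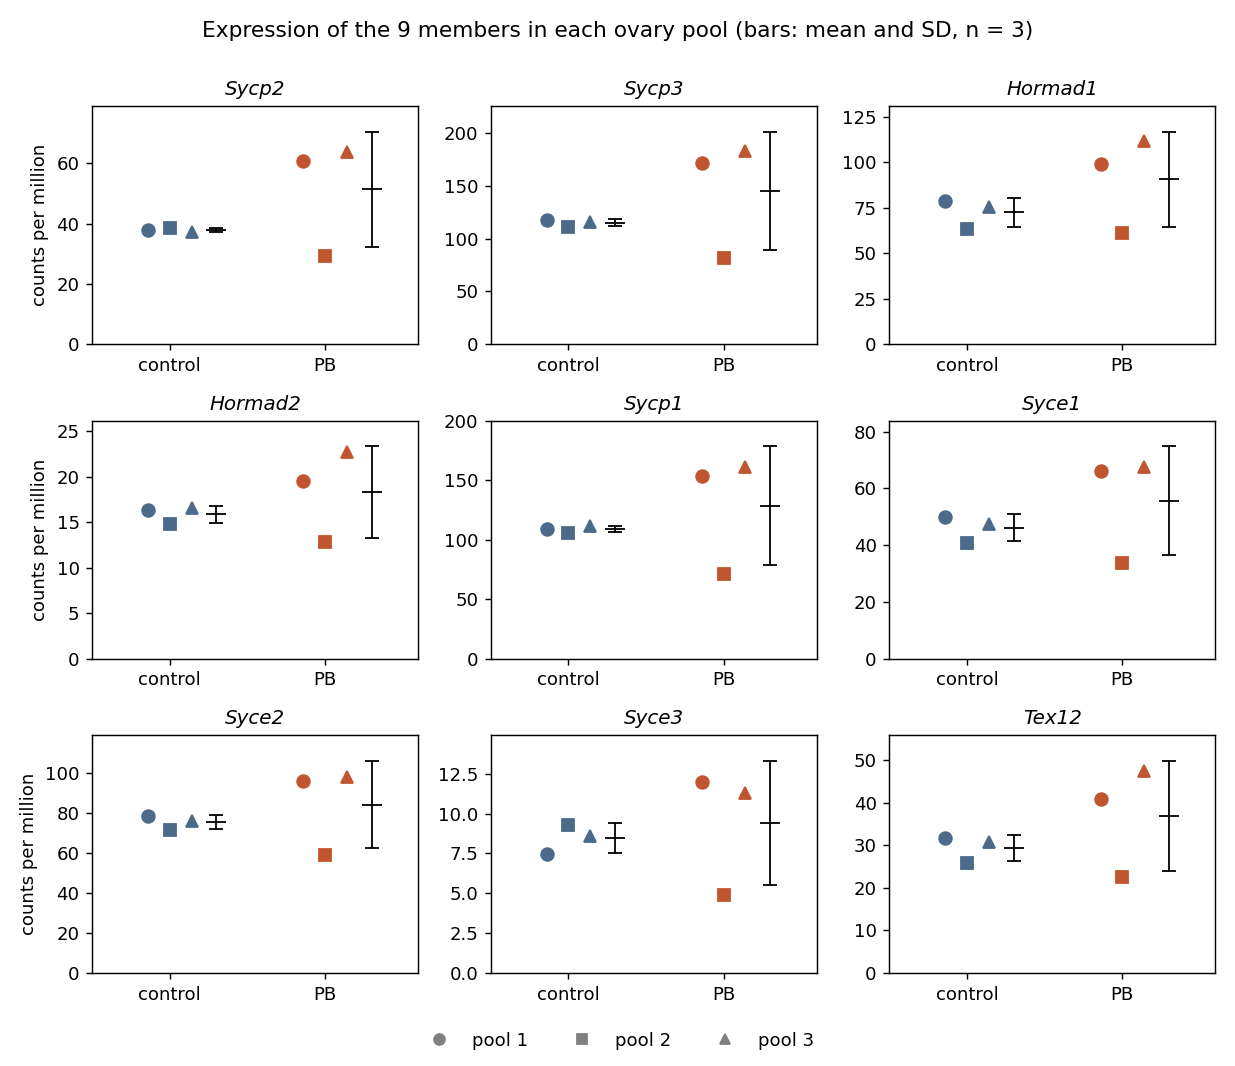
CPM of the 9 members in each of the 6 ovary pools, with the vertical axis from 0 in every panel, symbols for pools 1, 2 and 3 of each group and black bars for the mean and SD (n = 3). In every panel PB 1 and PB 3 lie above and PB 2 lies below the 3 control pools.

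Relative to the control mean, the members ranged from 123% to 161% in PB 1, from 58.1% to 84.4% in PB 2 and from 130% to 169% in PB 3. In control pools they ranged from 87.7% to 110%. The median SD of log2 values was 0.08 among control pools and 0.57 among PB pools for the members, and 0.10 and 0.12 for all genes tested. The SD was larger in PB for 9 of 9 members and for 59.1% of all genes.

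The p-values of the members depended on PB 2, whereas the calls did not. Without PB 2, all 9 genes had an unadjusted p under 0.05 in the edgeR fit, as did 12.3% of all genes, and Sycp2, Sycp3 and Sycp1 had FDR of 0.0173, 0.0214 and 0.0265. None of the 9 was called even then, since the log2 fold changes of 0.36 to 0.72 were under 2-fold. Without PB 1 the log2 fold changes ranged from -0.066 to 0.29 and without PB 3 from -0.0008 to 0.25, with FDR of at least 0.985 in both fits. Nothing in the annotation sets PB 2 apart, and all 3 PB pools are kept in the comparison.

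**Figure D2:**
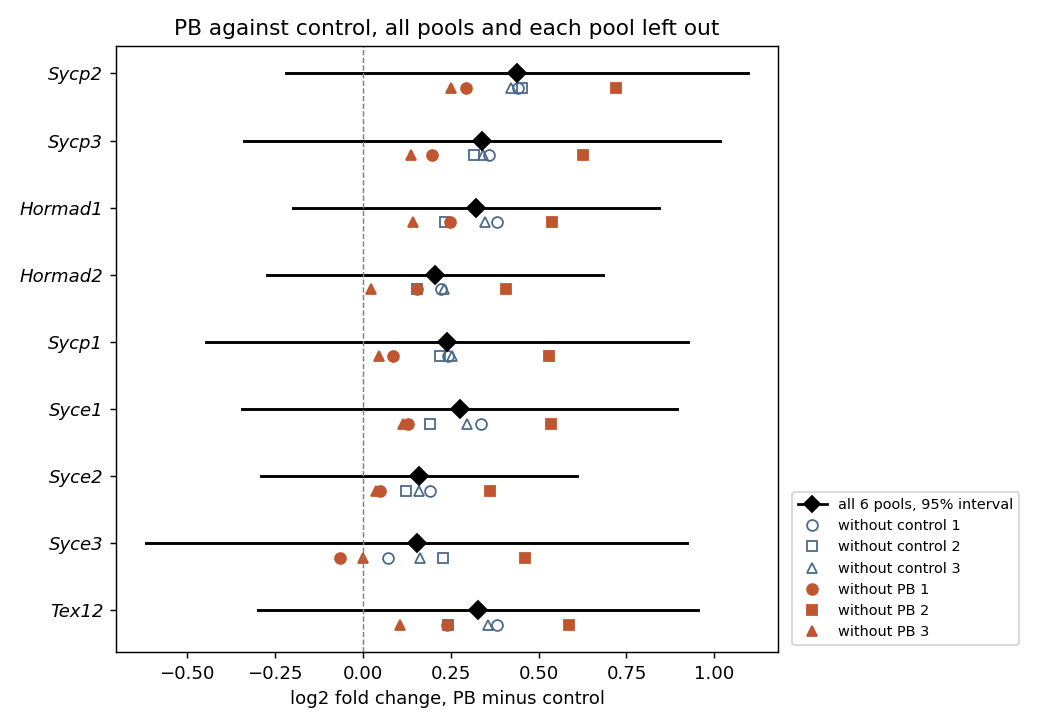
Log2 fold change of each member, PB minus control: black diamonds and lines give the edgeR estimate and 95% interval from all 6 pools, and the symbols below them give the estimate with each pool left out. All 9 intervals cross 0, and leaving out PB 2 gives the highest estimate for every gene, from 0.36 to 0.72.

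The 9 genes varied together over the pools. Over the 36 pairs of members, Pearson's r of log2(CPM + 0.5) had a median of 0.96 (0.77 to 0.99) and Spearman's rho a median of 0.94 (0.71 to 1) across 6 pools. In an exact permutation test over the 720 orders of the pools, 35 of the 36 pairs had an adjusted p of at most 0.05 for r (largest 0.0708) and 21 of 36 for rho (largest 0.136). The median r over all 188849895 pairs of genes tested was -0.001. The share of all gene pairs that would pass the permutation test was not computed, so the 2 counts have no background. All values of a pool come from 1 library, so the points of different genes are not separate samples. After leaving out the 2 pools farthest from the median, r had a median of 0.94 (0.59 to 1.00). The pools left out were PB pools in every pair, and the PB pool that stayed still lay outside the 3 control pools, so r without the outlying pools could not be given. On deviations from the group means, in which the PB pools also lie farthest out, the median was 0.97 (0.83 to 1.00). Syce1 and Syce2 were the most alike pair with r = 0.99, and Syce3 and Hormad1 the least alike with r = 0.77. The pair of Syce3 and Hormad1 was also the one with the adjusted p of 0.0708 in the permutation test. The Hormad1 sums used here include the transcript that runs into Golph3l, with 1594 counts in PB 2. These values of r without that transcript were not computed. The 4 lowest values of r all belonged to Syce3.

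**Figure D3:**
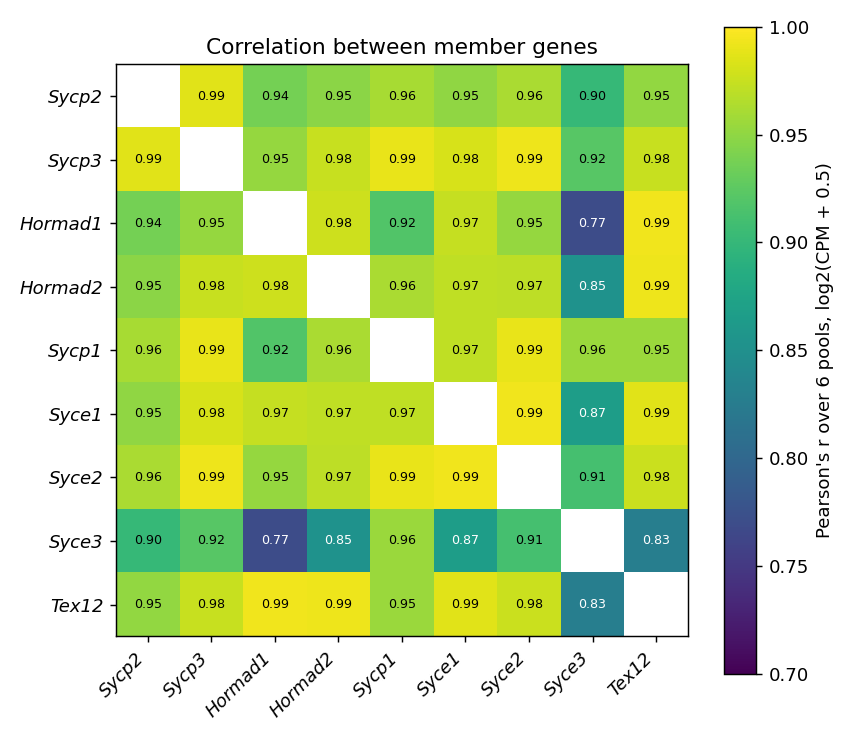
Pearson's r between member genes over the 6 pools on log2(CPM + 0.5), with colour and printed value for each pair and the colour scale starting at 0.7. All pairs lie at or above 0.77, with the lower values in the row of Syce3.

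Genes outside the members with the closest pattern were looked for among 14773 genes with a mean of at least 1 CPM. The 10 genes with the highest r to the mean standardised profile of the members over the 6 pools were Sgsm3, Hprt, Lrr1, Eif2b3, Atp6v1h, Zdhhc13, Rbm7, Nmd3, Pigf and Tex101, at r of 0.996 to 0.999. Tex101, a germ cell surface glycoprotein, stood at 86.9, 78.3 and 81.5 CPM in control and at 117, 60.0 and 121 CPM in PB pools. Hprt, an enzyme of purine salvage, spanned a smaller range, from 90.2 CPM in PB 2 to 119 CPM in PB 3. Of the 14773 genes, 3.60% had r of at least 0.95. None of the 10 is on the lists of meiotic or cell type genes used here.

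Other meiotic genes were read from 3 lists. None of their 31 members tested passed the test or had an unadjusted p under 0.05. Of 17 recombination genes, 15 had PB 2 below and PB 1 and PB 3 above every control pool, and 17 of 17 had a higher mean in PB, with a median log2 fold change of 0.34. Shoc1, a crossover factor, stood at 22.9, 22.7 and 25.2 CPM in control and at 42.0, 19.3 and 43.1 CPM in PB pools. Ankrd31, a factor of break formation, stood at 21.9, 22.2 and 21.9 CPM and at 36.4, 17.6 and 37.8 CPM. Both had their lowest value in PB 2. Mlh3, a mismatch repair protein that resolves crossovers, was 1 of the 2 exceptions, at 31.2, 32.5 and 30.8 CPM in control and 32.7, 33.9 and 33.9 CPM in PB pools.

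Of 7 genes of meiotic entry and telomere attachment, 6 had the same arrangement, the exception being Stra8. Terb1 encodes a protein that attaches telomeres to the nuclear envelope, and it stood at 32.9, 35.3 and 34.6 CPM in control and at 54.0, 27.7 and 59.0 CPM in PB pools. Terb2, the partner of Terb1, stood at 5.22, 4.06 and 5.09 CPM and at 7.73, 3.80 and 7.37 CPM. Both attachment genes were lowest in PB 2. Meiosin, the cofactor of STRA8, stood at 78.9, 64.8 and 74.5 CPM and at 109, 59.3 and 123 CPM. Of the synapsis partners, 4 of the 7 tested had it, among them the meiotic cohesin Rad21l with 52.1, 50.9 and 53.6 CPM in control and 86.7, 43.0 and 98.3 CPM in PB pools, and Iho1, the partner of HORMAD1 in break formation, with 24.0, 22.6 and 23.8 CPM and 38.5, 18.0 and 39.0 CPM. The cohesin Rec8 did not have it, at 112, 85.7 and 115 CPM in control and 92.7, 87.4 and 92.4 CPM in PB pools. Sycp2l, a relative of Sycp2, held 3 counts in PB 3 and none in any other pool, and was not tested.

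Germ cell markers followed the members only in part. Their summed level was 850, 626 and 847 CPM in control and 894, 563 and 973 CPM in PB pools, so that PB 2 was at 72.7% of the control mean, close to the 73.7% of the summed members. PB 1 and PB 3 stood at 115% and 126% of the control mean for the markers and at 141% and 150% for the members. Control 2 was at 80.9% for the markers and at 94.6% for the members. Summed members therefore amounted to 62.1%, 77.0% and 61.3% of summed germ cell markers in control and 80.5%, 66.7% and 78.8% in PB pools, and the groups overlapped.

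Of the 8 germ cell markers, 3 had PB 2 below and PB 1 and PB 3 above all control pools. These were Stk31, Mael and, by a small distance in PB 1, Dazl, at 298, 211 and 292 CPM in control and 304, 191 and 304 CPM in PB pools. Ddx4, an RNA helicase of germ cells, stood at 122, 89.7 and 130 CPM and at 124, 77.7 and 132 CPM. Piwil2 and Tex14 had log2 fold changes of -0.01 and 0.02. Dnd1 and Dppa3, markers of earlier germ cells, were the only germ cell markers with an unadjusted p under 0.05. Their log2 fold changes were -0.55 and -0.52, with an edgeR FDR of 0.888. Dppa3 stood at 20.1, 11.9 and 21.6 CPM in control and at 12.2, 12.5 and 12.8 CPM in PB pools, so that control 2 lay with the PB pools. Dnd1 stood at 10.9, 7.81 and 11.6 CPM and at 5.72, 8.52 and 6.38 CPM, with PB 2 as the highest PB pool.

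Few genes of the somatic marker lists had the arrangement. It was found in 1 of 6 pregranulosa markers (Lgr5) and 1 of 4 endothelial markers (Kdr), against 7.24% of all genes tested. None of 4 Sertoli, 3 interstitial, 4 mesonephros, 6 red blood cell and 4 macrophage markers had it. Lists this short cannot show that it is absent. In PB 1, PB 2 and PB 3 the summed pregranulosa markers stood at 103%, 100.2% and 90.8% of the control mean, and the interstitial markers at 94.5%, 103% and 97.2%. The endothelial sum stood at 93.6%, 98.9% and 94.9% and the macrophage sum at 85.9%, 95.9% and 105%. Other sums moved further, also among control pools. The Sertoli sum stood at 75.6%, 98.2% and 77.9%, against 86.7%, 86.0% and 127% in control 1, 2 and 3. For it, PB 1 and PB 3 lay below every control pool and PB 2 lay inside the control range. The mesonephros sum stood at 76.3%, 98.4% and 67.0%, against 71.5%, 77.5% and 151% in control, and only PB 3 lay outside the control range. The red blood cell sum stood at 85.7%, 77.8% and 79.8%, inside its control range of 63.5% to 136%. Within it, 1 of 6 genes had an unadjusted p under 0.05, against 4.46% of all genes. This was Hba-a2, at 3995, 4356 and 4345 CPM in control and 3672, 2195 and 1585 CPM in PB pools. Its log2 fold change was -0.77 (edgeR FDR = 0.888). The part of germ cells and of these other cell types in the levels of the members was not tested.

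**Figure D4:**
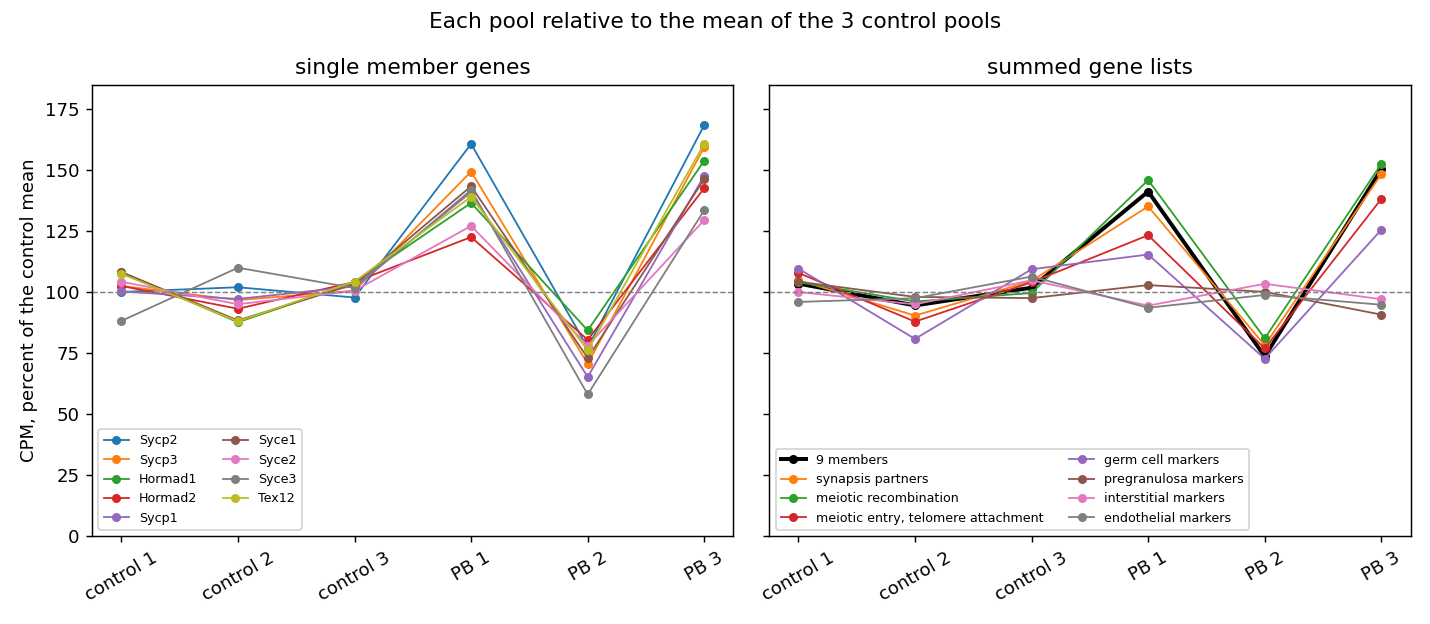
CPM in each pool as a percent of the mean of the 3 control pools, for single members (left) and for summed gene lists (right), with lines that join the points of a gene or list and stand for no order of pools. The members lie at 58.1% to 84.4% in PB 2 and at 123% to 169% in PB 1 and PB 3, and the pregranulosa, interstitial and endothelial sums stay between 90.8% and 106%.

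The isoform split was read from the 39 transcripts of the members, 29 of them known in RefSeq and 10 assembled from these libraries. None of the 34 transcripts tested was called (background 0.0332% of 51227 transcripts), and the smallest unadjusted p was 0.149, where 3.56% of all transcripts had one under 0.05. DESeq2 called 1169 transcripts against 17 by edgeR, and no member transcript was called by either. None of 32 transcripts tested for usage within the gene was called either (edgeR diffSpliceDGE, background 0.371% of 41011), with a smallest unadjusted p of 0.197, where 2.77% of all had one under 0.05. In counts simulated with the spread of all 51227 transcripts tested, 0 of 200 transcripts drawn from them and changed 4-fold were recovered. From gene sums, 82.5% of 200 genes changed 4-fold were recovered. The test of single transcripts thus had little power for such changes in a typical transcript. The simulation was not run on the member transcripts alone, whose SE of the log2 fold change ranged from 0.16 to 1.90. The usage test was simulated only at a smaller spread than that of the transcripts tested, so its power here is not known.

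In some members the division of counts among alike transcripts differed between pools. The 9 transcripts of Sycp2 are the clearest case, with 83.4% to 97.5% of counts on assembled forms. The assembled form of 5597 bases held 63.1% of counts in control 2, 65.6% in PB 2 and 67.3% in PB 3, but 6.24% to 10.5% in the other 3 pools. Forms of 4984 and 5074 bases led in those pools, and the gene sum of the control pools nevertheless stayed within 1.04-fold. In Hormad1, the leading known form of 15 exons held 48.8% to 63.9% of counts in 5 pools and 22.1% in control 3. In Hormad2, the leading form held 22.5% to 61.7% of counts. Syce1 had a single transcript, and Syce3 had 100% of counts on 1 of its 2 transcripts in 5 pools and 96.8% in control 3. Shares of single splice events were therefore summed over all transcripts that contain them.

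The retained last intron of Sycp3 (chr10:88472781-88472904, 124 bases) was present in 20%, 21.1% and 15.0% of counts in control and in 18.7%, 23.2% and 21.2% in PB pools, and the groups overlapped. An assembled Sycp1 form lacks the first 6 bases of the second exon, in the 5′ untranslated region (chr3:102935660-102935665), shown in capitals before the bases that both forms share.
Sycp1, start of the second exon: GCCCAGgaggcagcatggagaagc
The shorter form held 39.5%, 37.4% and 40.2% of counts in control and 46.0%, 38.0% and 43.1% in PB pools, with PB 2 inside the control range. The Tex12 form with a second exon 13 bases longer, also in the 5′ untranslated region, held 49.0% to 61.9%. In Syce2, an alternative start exon was used in 24.3% to 29.8% of counts and the third exon was skipped in 6.29% to 11.2%. In these 5 events the groups overlapped.

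The late exon of Hormad1 (chr3:95585535-95585589, 55 bases) was present in 27.3%, 27.0% and 29.4% of counts in control and in 22.7%, 18.3% and 24.7% in PB pools. Every PB pool lay below every control pool, and the exact two-sided permutation test gave p = 0.1, the smallest that 3 against 3 pools allow. Among 41005 shares of single transcripts, 5.04% lay lower in all PB pools and 9.75% did not overlap in either direction. The late exon share is a sum over 4 transcripts, so this background is of an unlike measure. With the transcript that runs into Golph3l left out of the total, the shares were 27.3%, 27.0% and 29.5% in control and 23.8%, 24.6% and 24.7% in PB pools. This was 1 of 7 events compared, and it does not pass a threshold of 0.05. The share in control 3 stayed near those of the other control pools, although its counts were divided otherwise among the Hormad1 transcripts. The transcript that runs into Golph3l made up 4.55% of Hormad1 counts in PB 1 and 25.5% in PB 2, but none in PB 3.

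**Figure D5:**
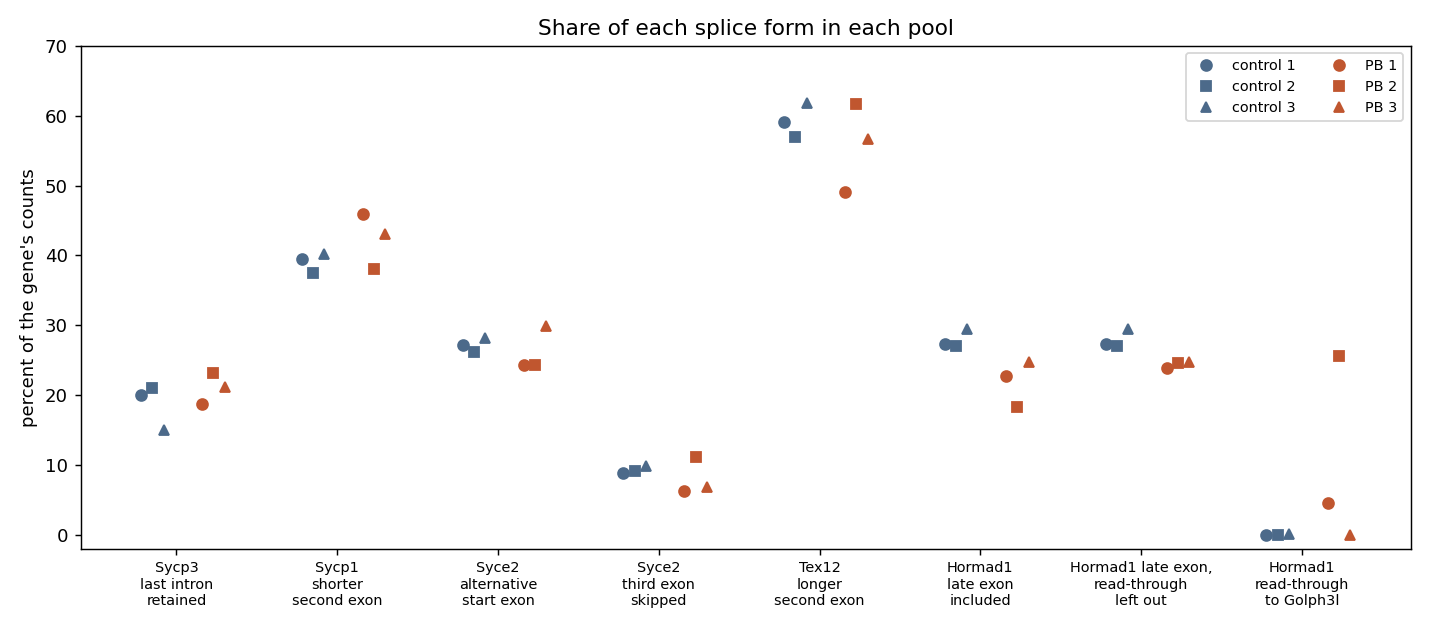
Percent of the counts of each gene that fall on transcripts with the named splice form, for each of the 6 pools (blue for control, orange for PB, symbols for pools 1, 2 and 3). For the late exon of Hormad1 the PB pools lie at 18.3% to 24.7% and the control pools at 27.0% to 29.4%, and for the forms of Sycp3, Sycp1, Syce2 and Tex12 the groups overlap.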

How the data were processed

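RNA of 3 control and 3 PB ovary pools was sequenced by the authors from directional libraries (paired 100-base reads) and aligned to mm10 with HISAT2 2.1.0. Transcripts were assembled and merged with StringTie 1.3.5, and the deposited counts are whole numbers per transcript that StringTie derives from coverage, 97165644 to 125985399 per pool. The deposited annotation gives positions in mm10. Columns of the authors' own test with DESeq2 1.30.0 (fold changes, errors, p-values and normalized counts) were not used.

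Counts were summed by gene name and tested with edgeR 4.0.16 (TMM, filterByExpr with a minimum count of 10, quasi-likelihood F-test, Benjamini-Hochberg FDR). Calls needed a 2-fold change or more together with FDR ≤ 0.05. Isoform usage was tested with diffSpliceDGE. The scripts were tested on simulated data. DESeq2 1.42.0, other filters and scalings, a replicate block and each pool left out were tried. Intervals cover the spread between pools. Members and lists were chosen with earlier results of these data known. Named were the 9 members, transcripts with at least 10% of a gene's counts in a pool, the genes of each meiotic list with p under 0.05 or the 3 smallest p, all germ cell markers and the 10 genes most alike (mean of at least 1 CPM). Meiosin, Iho1 and Shoc1 were found under older symbols. Overlapping neighbours are Chpt1 at Sycp3, Gcdh at Syce2 and Il18 at Tex12, each on the opposite strand, and Golph3l at Hormad1 on the same strand.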

Additional observations from a re-analysis of the deposited data

How the results depend on the processing

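No member gene and no single member transcript was called in any setting tried, and the 9 mean differences stayed above 0 except for Syce3, at -0.066 without PB 1 and -0.0008 without PB 3 (up to 0.46 without PB 2). The cause was not tested. All genes called numbered 3 in the gene sums, 0 with the replicate block, 11 with DESeq2, 8 with known transcripts only and 3 to 9 with 1 pool left out, highest without PB 2. Transcripts called numbered 17, 0 with the block, 39 with the stricter filter, 1169 with DESeq2 and 0 to 19 with 1 pool left out, lowest without control 1. Isoform usage calls numbered 152, 70 with the block, 310 with the stricter filter and 176 to 233 with 1 pool left out. The member transcripts among them numbered 0 or 1: without control 3 the Hormad1 transcript that runs into Golph3l was called. Replicate numbers were not taken as pairs, since the deviations of same-numbered pools correlated only at 0.10, 0.22 and 0.036. Control 1 and control 3 correlated best with PB 3, and control 2 with PB 2. The best partner thus had the same number for control 2 and control 3 but not for control 1. The median r of members was 0.90 with known transcripts only, and 0.957 to 0.979 with 1 pool left out. The ratio of the highest to the lowest member level was 13.8 per length, 13.6 in CPM (Sycp3 over Syce3) and 127 with known transcripts only, where Sycp2 keeps few counts.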
